A study of Mus musculus with 18 samples.

Results

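Olig1 and Olig2 are neighbouring genes for basic helix-loop-helix (bHLH) transcription factors, proteins that pair with partner proteins to bind short DNA elements called E-boxes. Both were examined in mouse pluripotent stem cells. Each had 1 probe set on the array (1416149_at for Olig1, 1416232_at for Olig2), so the members were 2 of the 18193 genes measured, and both are shown on every array with no filter on level. The genes were chosen by their log2 values on these same 18 arrays, so their levels are given as a description with no test. Expression was measured by hybridising total RNA from 6 cell lines to Affymetrix arrays, with 3 arrays for each line. R1 (strain 129X1/SvJ x 129S1 F1) and ESC2 (B6 x D2 F1) were embryonic stem (ES) lines, derived from embryos. IP14D-1, IP20D-3 and IP36D-3 (all B6 x D2 F1) and IP14D-101 (B6 x 129S2 F1) were induced pluripotent stem (iPS) lines, reprogrammed from somatic cells. All lines were grown with leukaemia inhibitory factor (LIF) on feeder fibroblasts stopped from dividing with mitomycin C, in medium with fetal bovine serum or a knockout serum replacement. Which line had which medium, how the iPS lines were reprogrammed, and whether replicate arrays represent separate cultures is not given in the labels, so p-values measure the spread between these arrays, which may be technical. R1 was the single line with that strain label and IP14D-101 the single line with its own, so line and strain cannot be told apart for either.

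In the developing spinal cord, the secreted signal Sonic hedgehog (Shh) switches on Olig2 in a ventral band of dividing cells, which give rise first to motor neurons and later to oligodendrocytes, the myelin-forming cells. Olig1 acts alongside Olig2 in oligodendrocytes and in their maturation and repair. In undifferentiated stem cells such developmental regulators are typically held at a low level by Polycomb complexes, enzymes that place repressive marks on chromatin.

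The promoter of Olig2 is shown because both genes were low in R1 and higher in all 5 other lines. It is the RefSeq sequence of the GRCm38.p6 build, chr16:91225300-91225549 on the plus strand, which covers the 250 bases before the annotated start of the gene. Capitals mark the letters that matched a searched motif.

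Olig2 promoter: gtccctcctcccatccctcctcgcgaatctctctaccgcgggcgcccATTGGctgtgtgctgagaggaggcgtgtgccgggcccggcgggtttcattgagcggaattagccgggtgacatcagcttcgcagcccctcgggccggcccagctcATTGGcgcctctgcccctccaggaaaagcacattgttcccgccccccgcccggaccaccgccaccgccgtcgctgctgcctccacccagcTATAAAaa

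Counts over the sequence were made in a window of 300 bases that adds the 50 bases after the start, as for all 32851 promoters of the same length. The window held 25 CG dinucleotides, more than 81.6% of all promoters, whose median was 7, and its GC content was 65.0%. Motifs were searched on both strands, and no matches overlapped. CCAAT, the CCAAT box, matched at 2 places, both as the reverse complement ATTGG, which begin at positions -203 and -98 counted from the annotated start, and 37.4% of promoters held it. TATAAA, the letters of the TATA box, matched once at -8, and 13.6% of promoters held it. Whether the match at this position acts as a TATA box was not tested. CANNTG, the E-box that bHLH proteins bind, matched 0 times against 72.3% of promoters with it. GACCACCCA, the binding sequence of the GLI factors that carry the Shh signal, matched 0 times against 0.253% of promoters with it. Olig1 was not matched in the promoter table.

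Values are probe set intensities after robust multi-array average (RMA) normalisation. Those of Olig1 in R1 were 16.9, 14.9 and 13.1, against 379.8, 383.9 and 378.5 in ESC2. In iPS lines they were 217.8, 213.8 and 250.0 in IP14D-1, and 267.9, 275.5 and 235.0 in IP20D-3. They reached 576.3, 598.6 and 620.2 in IP36D-3, and 594.8, 552.4 and 638.4 in IP14D-101. The arrays of R1 were the lowest and did not overlap with those of any other line. As log2 values, the mean was 3.90 ± 0.18 (SD, n = 3) in R1, 7.82 ± 0.12 in IP14D-1, 8.02 ± 0.12 in IP20D-3, 8.57 ± 0.01 in ESC2, 9.21 ± 0.10 in IP14D-101 and 9.22 ± 0.05 in IP36D-3, each over 3 arrays. In this order, the arrays of IP14D-1 and IP20D-3 overlapped (difference 0.19) and so did those of IP14D-101 and IP36D-3 (0.01). The arrays of ESC2 lay between these pairs with no overlap, 0.56 above IP20D-3 and 0.64 below IP14D-101.

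The intensities of Olig2 in R1 were 6.7, 8.6 and 10.9, against 150.1, 132.0 and 149.1 in ESC2. They were 130.4, 123.4 and 144.7 in IP14D-1, and 114.1, 124.5 and 120.4 in IP20D-3. They were 160.9, 162.8 and 170.6 in IP36D-3, and 294.1, 264.4 and 339.0 in IP14D-101. R1 was again below every array of the other lines, and IP14D-101 was above every array of the others. The log2 mean was 3.10 ± 0.35 (SD, n = 3) in R1, 6.90 ± 0.06 in IP20D-3, 7.05 ± 0.12 in IP14D-1, 7.16 ± 0.10 in ESC2, 7.36 ± 0.04 in IP36D-3 and 8.22 ± 0.18 in IP14D-101. The arrays of IP20D-3 and IP14D-1 overlapped (difference 0.15), as did those of IP14D-1 and ESC2 (0.11). IP36D-3 stood 0.20 above ESC2 and IP14D-101 stood 0.85 above IP36D-3, both without overlap.

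**Figure D1:**
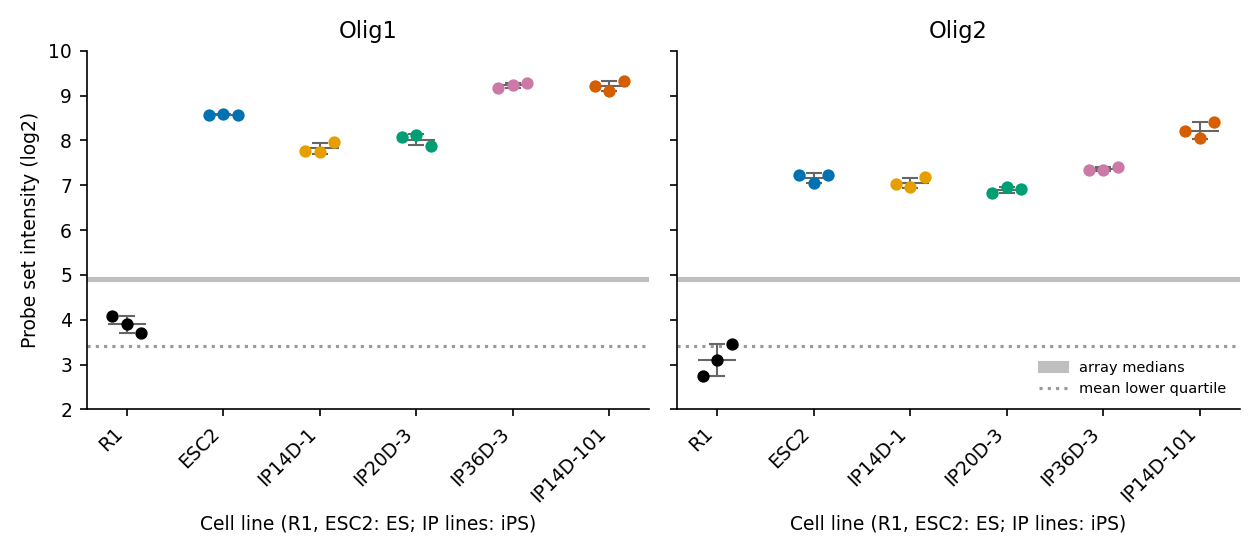
Log2 intensity of the Olig1 and Olig2 probe sets (vertical axis) on each of the 3 arrays of the 6 lines (horizontal axis), with points for arrays and bars for the mean and SD. The grey band marks the range of array medians and the dotted line the mean lower quartile. R1 sits at 3.90 for Olig1 and 3.10 for Olig2, and the mean of every other line is at least 6.90.

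The difference from R1 in Olig1 was 4.68 in ESC2, 3.93 in IP14D-1, 4.12 in IP20D-3, 5.33 in IP36D-3 and 5.32 in IP14D-101 on the log2 scale, each with a standard error of 0.10 from limma's model. These are 25.6-, 15.2-, 17.4-, 40.2- and 39.9-fold in intensity. For Olig2 the differences were 4.07, 3.95, 3.80, 4.27 and 5.12 in the same order of lines, with a standard error of 0.13, or 16.8-, 15.5-, 14-, 19.2- and 34.8-fold. All 5 differences of a gene share the 3 arrays of R1. No call of presence came with the values, so R1 was set beside 44 probe sets for olfactory receptors, genes of the nasal epithelium, a comparison chosen after seeing the data. In R1 these had a log2 median of 3.12, with percentiles 5 and 95 at 2.62 and 4.46. Olig1 was above 84.1% of them in R1 and Olig2 above 45.5%, so neither was shown to lie above background there and the fold sizes are uncertain. In every other line both genes were above 100% of these probe sets.

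R1 lay between the 29.4 and 36.7 percentiles of its arrays for Olig1, and between 9.9 and 24.2 for Olig2. The other lines lay between 81.0 and 91.9 for Olig1 and between 71.9 and 86.3 for Olig2. Both genes were therefore among the brighter probe sets on the arrays of 5 lines, including the ES line ESC2.

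The split did not follow the cell type. Olig1 was 8.57 ± 0.75 (SD over 4 lines) in iPS lines and 6.24 ± 3.30 (2 lines) in ES lines, and Olig2 was 7.38 ± 0.59 and 5.13 ± 2.87. The ES mean lies between R1 and ESC2 and describes neither. ESC2 was within the range of the iPS lines for both genes.

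Olig1 and Olig2 varied together across lines, but not to the same degree in every line. Over the 6 line means Pearson's r was 0.98 and Spearman's rho 0.89, a description with no p in which R1 is the distant point. Without R1, r was 0.77 and rho 0.80 over 5 lines. Without R1 and IP36D-3, the lines farthest from the median of Olig1, r was 0.91 and rho 0.80 over 4 lines. Against ESC2, IP36D-3 was 0.65 higher for Olig1 and 0.20 higher for Olig2, and IP14D-101 was 0.64 and 1.05 higher. IP14D-1 was 0.75 lower for Olig1 and 0.11 lower for Olig2, and IP20D-3 was 0.56 and 0.26 lower. Within R1 the array with the highest Olig1 had the lowest Olig2.

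**Figure D2:**
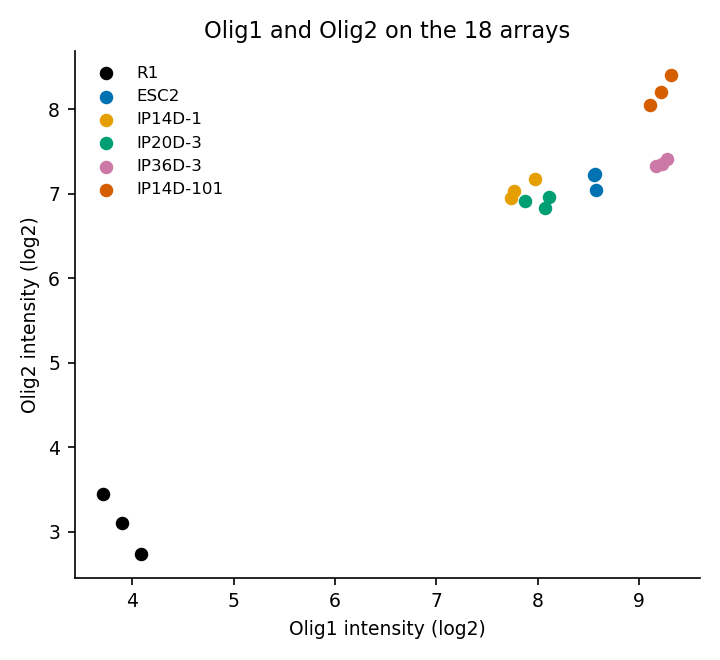
Log2 intensity of Olig1 (horizontal axis) against Olig2 (vertical axis) on the 18 arrays, coloured by line. The 3 arrays of R1 lie apart at the lower left, IP14D-101 lies highest for Olig2, and IP36D-3 reaches the Olig1 level of IP14D-101 with a mean Olig2 of 7.36.

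Other genes were tested in the lines against R1, which was taken as the comparison line because its Olig1 and Olig2 values had been seen to be lowest. A gene was called higher or lower at an adjusted p under 0.05 in limma and a log2 difference of at least 1. By this rule 8.13% of all genes were called in ESC2, 3.85% in IP14D-1, 12.7% in IP20D-3, 6.18% in IP36D-3 and 2.52% in IP14D-101. The median difference of all genes from R1 was -0.15, -0.09, -0.13, -0.08 and 0.00 in that order, and the medians of lists are to be read against it. All 5 comparisons share the arrays of R1.

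Relatives and partners of the OLIG proteins did not share the pattern as a group. Of 30 measured bHLH factors, E proteins and inhibitors, 3 were higher and 3 lower for ESC2, 0 and 2 for IP14D-1, 2 and 6 for IP20D-3, 0 and 2 for IP36D-3, and 1 and 3 for IP14D-101. The medians were -0.11, -0.08, -0.20, -0.06 and 0.05. Olig3, the third gene of the family, went the other way, with 4.95 ± 0.22 (SD, n = 3) in R1 and lower values elsewhere. It fell by 1.12 in ESC2, 1.30 in IP14D-1, 1.54 in IP20D-3 and 1.65 in IP36D-3 (standard error 0.15, limma's adjusted p at most 4.39e-06), and was 4.01 ± 0.18 in IP14D-101 without a call. Its level in R1 was near the array median (log2 4.86 to 4.93 over the arrays) and in the other lines under it.

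Among the dimer partners, the E protein gene Tcf12 was higher in ESC2 and in IP20D-3, by 1.26 ± 0.12 (SE) in each (adjusted p = 7.86e-08 and 4.34e-08 in limma). Tcf4, another E protein gene, was 6.91 ± 0.25 (SD, n = 3) in R1 and between 7.19 and 7.76 in the others, without a call. Id1 encodes an inhibitor that takes E proteins away from bHLH factors, and it was lower than R1 by 1.30 in ESC2, 1.50 in IP14D-1, 2.35 in IP20D-3 and 1.37 in IP14D-101. In IP36D-3 Id1 was 10.84 ± 0.18 (SD, n = 3) against 11.13 ± 0.02 in R1 and was not called. Of the related inhibitors, Id2 fell by 1.31 in IP36D-3, 1.96 in IP14D-101 and 1.21 in IP20D-3. Id3 fell by 1.17 in IP20D-3 and 2.13 in IP14D-101. Id4 went up in IP20D-3, by 1.31 ± 0.10 (SE), and was not called against R1 in the other lines. Bhlhe40, a bHLH repressor linked to the circadian clock, fell by 1.54 in ESC2 and 1.29 in IP20D-3. The neuronal bHLH factors differed among themselves. Neurod1 rose by 1.29 in ESC2, where it was 7.69 ± 0.05 (SD, n = 3), and by 1.04 in IP14D-101, where it was 7.44 ± 0.22, the latter call being lost without IP14D-101 replicate 1 (0.96) or IP14D-101 replicate 2 (1.00). The remaining iPS lines were not called, at means of 6.58, 5.93 and 6.71 beginning with IP14D-1 and ending with IP36D-3. Neurog3 rose by 1.20 ± 0.16 (SE) in ESC2, from 3.84 to 5.04, and no other line was called against R1. Neurog2 was between 3.86 and 4.10 in all lines, under the array median.

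The Shh pathway showed no shared rise. Of 18 measured genes, 0 were higher and 1 lower for ESC2, 0 and 1 for IP14D-1, 1 and 2 for IP20D-3, 0 and 2 for IP36D-3, and 0 and 0 for IP14D-101, with medians of -0.28, -0.10, -0.29, -0.19 and -0.06. Shh itself was at most 4.37 in all lines, under the array median. Smo, the membrane protein that carries the signal inward, fell by 1.65 in ESC2, 1.25 in IP14D-1, 2.52 in IP20D-3 and 1.59 in IP36D-3 (SE 0.09), and was 8.19 ± 0.19 (SD, n = 3) in IP14D-101 against 8.65 ± 0.04 in R1. The usual targets of the pathway did not move together. Ptch1, the receptor gene, was 8.95 in R1 and between 9.23 and 9.86 elsewhere, without a call. Its 2 other probe sets, with means under 6, shared that direction in IP14D-101 alone. Gli1, a target and effector, was 7.07 in R1, fell by 1.32 in IP36D-3 (adjusted p = 8.49e-08 in limma) and was between 6.20 and 7.37 in the other lines. Hhip, an inhibitor that binds the ligand, was higher in IP20D-3 by 2.59 ± 0.16 (SE).

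Genes that accompany Olig2 in the ventral neural tube lay on both sides of the array median. Of 21 measured, 13 were under it in every line and 5 at or above it in every line. The median divides the probe sets of an array evenly, and the share over all genes was not counted, so these counts do not set the list apart. Called higher and lower were 1 and 1 for ESC2, 0 and 0 for IP14D-1, 0 and 1 for IP20D-3, 1 and 1 for IP36D-3, and 0 and 0 for IP14D-101, with medians of -0.27, -0.18, -0.32, -0.41 and -0.07. Pax6, a neural patterning factor of cells that neighbour or precede Olig2 cells, was higher in ESC2 by 1.78 ± 0.13 (SE) and in IP36D-3 by 2.28 ± 0.13 (adjusted p = 2.56e-09 and 1.68e-10 in limma). It was 5.16 ± 0.23 (SD, n = 3) in R1 and between 5.66 and 6.04 in IP14D-1, IP14D-101 and IP20D-3, which were not called. IP20D-3 passed without R1 replicate 3 (1.01) or with repeated quantile normalisation (1.00). Of the 4 other probe sets of Pax6, all with means under 6, 2 went the same way in ESC2 and 2 in IP36D-3. Foxp4, a forkhead factor of motor neuron progenitors, fell by 2.41 in ESC2, 2.33 in IP20D-3 and 1.87 in IP36D-3. Nkx2-2, the factor ventral to Olig2, was between 2.36 and 2.90 in all lines.

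Oligodendrocyte genes also lay on both sides of the array median. Of 27 measured, 15 were under it in every line and 7 at or above it in every line, again with no share over all genes counted. Called higher and lower were 1 and 0 for ESC2, 1 and 0 for IP14D-1, 1 and 1 for IP20D-3, 1 and 0 for IP36D-3, and 2 and 0 for IP14D-101, with medians of -0.19, -0.08, -0.27, -0.18 and -0.05. Sox10, the factor that follows Olig2 in this lineage, was between 5.38 and 6.07. The myelin genes Mbp and Mog were between 5.09 and 5.44 and between 2.23 and 2.50. The member higher in every line was Nfib, a factor of glia and of other tissues, by 1.93 in ESC2, 1.61 in IP14D-1, 2.00 in IP20D-3, 1.21 in IP36D-3 and 1.04 in IP14D-101 (SE 0.35). In IP14D-101 the arrays of Nfib spread by an SD of 1.03. That call was lost without R1 replicate 1 (1.04, adjusted p = 0.0791), R1 replicate 3 (0.82, 0.152), IP14D-101 replicate 1 (0.71, 0.183) or IP14D-101 replicate 2 (0.77, 0.169), with only the 2 lines compared in the fit (0.158) and with all probe sets tested (0.0501), and the call in IP36D-3 without R1 replicate 3 (0.99). The other called member that rose in IP14D-101 was Pdgfra, by 1.20 ± 0.11 (SE), a receptor gene of oligodendrocyte progenitors that also marks primitive endoderm.

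Genes of early neuroectoderm and neural progenitors went both ways. Of 26 measured, 3 were higher and 1 lower for ESC2, 4 and 1 for IP14D-1, 1 and 7 for IP20D-3, 5 and 1 for IP36D-3, and 2 and 4 for IP14D-101, with medians of 0.01, -0.06, -0.25, -0.07 and 0.12. Sox1, a defining factor of the neural plate, was between 5.02 and 5.60 in all lines. Nes, an intermediate filament of neural progenitors, fell in all 5 lines, by 1.28 in ESC2, 1.08 in IP14D-1, 2.05 in IP20D-3, 1.21 in IP36D-3 and 1.33 in IP14D-101 (SE 0.10, adjusted p at most 2.70e-07 in limma), though with equal array medians the difference in IP14D-1 was -0.97 and the call was lost. Otx2, a factor of the anterior neural plate and of primed epiblast, rose by 2.17 in ESC2, 1.34 in IP14D-1 and 2.19 in IP36D-3. Gbx2 fell by 2.87 in IP20D-3 and rose by 1.07 in IP14D-101. By line mean, R1 was the lowest line for Hesx1, Zic5, Zic2 and Fabp7. It was the highest for Nes, Sox3, Six3, Otx1 and Pou3f3. Hesx1 was 4.71 in R1 and between 5.37 and 7.08 elsewhere, and Zic5 was 7.80 and between 8.30 and 8.93.

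Neuron genes (16 measured) had 0 higher and 2 lower for ESC2, 0 and 1 for IP14D-1, 1 and 1 for IP20D-3, 1 and 1 for IP36D-3, and 0 and 3 for IP14D-101. The medians were -0.33, -0.30, -0.34, -0.26 and -0.01. In IP14D-101 the neurofilament gene Nefm fell by 3.48 and the growth-cone gene Gap43 by 2.09. Of 8 astrocyte genes, 0 were higher and 1 lower (Aldh1l1) in ESC2 and 0 changed in the other 4 comparisons, with medians of -0.16, -0.21, -0.27, -0.09 and 0.06.

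**Figure D3:**
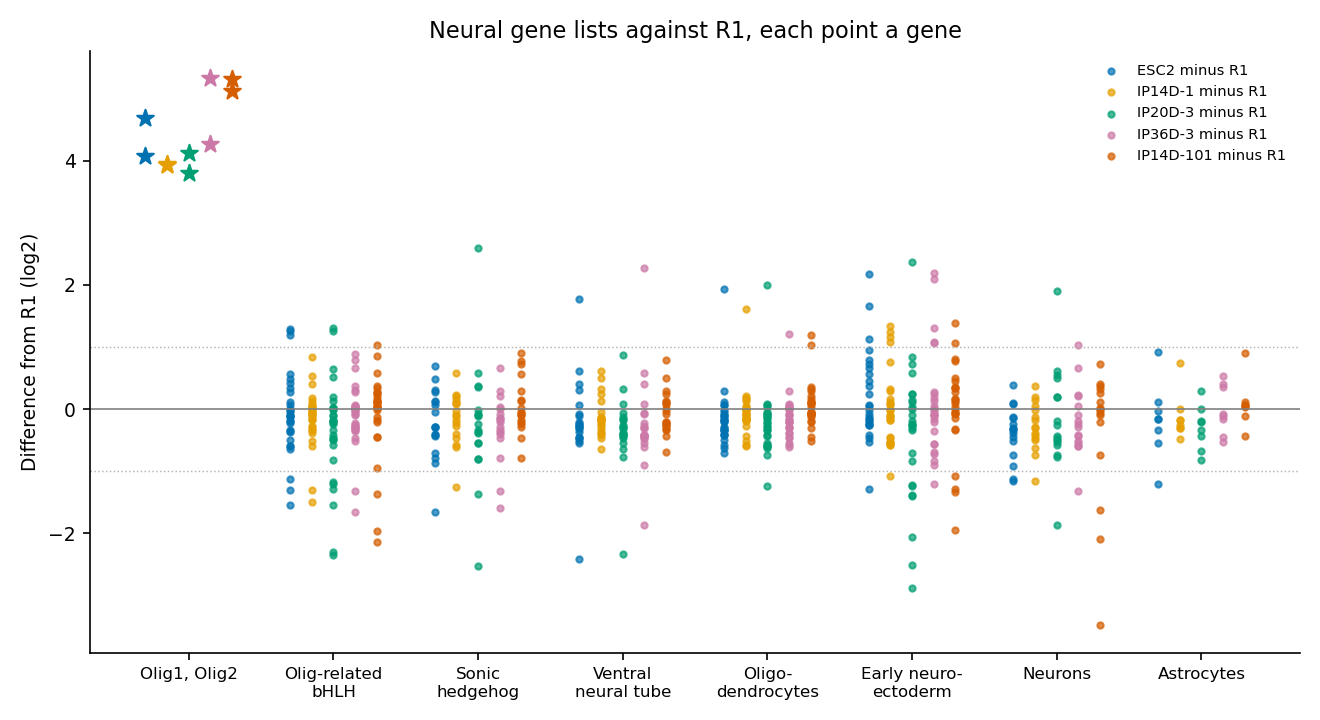
Log2 difference from R1 (vertical axis) of every measured gene of 7 of the lists (horizontal axis), 1 point per gene and line, with stars for Olig1 and Olig2, colours for the line and dotted lines at a difference of 1 up and down. The stars lie between 3.80 and 5.33, above every list gene, of which Hhip in IP20D-3 is the highest at 2.59, and Nefm in IP14D-101 is the lowest at -3.48.

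Pluripotency genes were bright in every line, ES and iPS alike. All 22 measured core pluripotency genes were at or above the array median in every line, again with no share over all genes counted. Pou5f1 was between 12.12 and 12.64 and Nanog between 11.24 and 11.81. Against R1, 1 was higher and 7 lower for ESC2, 2 and 1 for IP14D-1, 5 and 1 for IP20D-3, 1 and 1 for IP36D-3, and 1 and 0 for IP14D-101, with medians of -0.52, 0.20, 0.55, -0.06 and 0.24. Dppa3, a germline and early embryo factor, was higher than R1 in all 5 lines, by 2.57, 1.82, 1.76, 2.79 and 1.75 (SE 0.07). Primed epiblast genes (12 measured) had 4 higher and 0 lower for ESC2, 1 and 0 for IP14D-1, 0 and 4 for IP20D-3, 4 and 0 for IP36D-3, and 3 and 1 for IP14D-101, with medians of 0.35, 0.22, -0.55, 0.15 and 0.03. IP20D-3 had bright Olig1 and Olig2 with 4 primed genes lower, and ESC2 and IP36D-3 with 4 higher.

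Polycomb genes (21 measured) were all at or above the array median in every line. The share over all genes was not counted here either. Called higher and lower were 0 and 2 for ESC2, 0 and 0 for IP14D-1, 0 and 1 for IP20D-3, 0 and 1 for IP36D-3, and 0 and 0 for IP14D-101, with medians of 0.06, 0.24, 0.03, -0.03 and 0.10. Epop, a gene for a protein bound to Polycomb repressive complex 2, fell by 2.50 in ESC2, 1.56 in IP20D-3 and 2.24 in IP36D-3. The part of Polycomb genes in the levels of Olig1 and Olig2 was not tested.

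Feeder fibroblasts can add RNA to every sample, so their markers were read as well. Of 19 measured, 4 were higher and 1 lower for ESC2, 6 and 1 for IP14D-1, 0 and 5 for IP20D-3, 0 and 3 for IP36D-3, and 0 and 1 for IP14D-101, with medians of 0.15, 0.20, -0.44, -0.36 and -0.19. The mean log2 level of the list was 5.09 in R1, 5.37 in ESC2, 5.60 in IP14D-1, 4.72 in IP14D-101, 4.32 in IP20D-3 and 4.56 in IP36D-3. Col1a1, the main fibroblast collagen, was between 4.55 and 5.69. Lox was 4.66 in R1, 6.81 in ESC2 and 6.97 in IP14D-1, and between 3.93 and 4.45 in the other lines. Col5a2 was 5.04 in R1, 6.45 in ESC2 and 6.51 in IP14D-1, and between 3.95 and 4.64 in the other lines. Tagln, an actin-binding protein gene of smooth muscle and fibroblasts, was lower than R1 in all 5 lines, with differences of -1.85, -1.25, -4.14, -2.94 and -3.46, and was the member called lower in IP14D-101. RNA controls also differed. The beta-actin signal at the 3' end over that at the 5' end was 1.13 ± 0.007 (SD, n = 3) in R1, 1.14 ± 0.028 in IP14D-101, between 1.26 and 1.28 in the other iPS lines, and 1.53 ± 0.043 in ESC2. The 18S signal was 33.8 to 35.3 in R1 and 24.8 to 29.4 in IP14D-101, against 46.9 or more on every array of the other lines. It also differed between arrays of a line, from 110.8 to 524.8 in IP20D-3 and from 107.2 to 229.7 in IP36D-3. The part of feeder RNA and of RNA quality in the levels of Olig1 and Olig2 was not tested. In bulk RNA, a gene carried by fewer cells and less RNA per cell cannot be told apart.

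IP14D-101, the line with the highest Olig2, was set against the other 4 bright lines. By the same rule 8.73% of all genes were called against ESC2, 3.73% against IP14D-1, 10.1% against IP20D-3 and 4.17% against IP36D-3, and these comparisons share the arrays of IP14D-101. The median difference of all genes was 0.15, 0.08, 0.13 and 0.07. Olig2 was higher in IP14D-101 by 1.05, 1.17, 1.32 and 0.85 in that order (SE 0.13), and Olig1 by 0.64, 1.39 and 1.20 against ESC2, IP14D-1 and IP20D-3 (SE 0.10), while Olig1 of IP36D-3 was 0.01 above that of IP14D-101, within the spread.

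Primitive endoderm genes, which mark the extraembryonic lineage beside the epiblast, stood with IP14D-101. Of 16 measured, 10 were called higher and 0 lower against each of the 4 lines, with medians of 2.14, 1.63, 1.64 and 1.98, and likewise 10 and 0 against R1 (median 1.32). Against R1 the counts in the other lines were 0 higher and 2 lower for ESC2, 0 and 1 for IP14D-1, 2 and 5 for IP20D-3 and 0 and 2 for IP36D-3. Cubn, a receptor of visceral endoderm, was 9.56 ± 0.12 (SD, n = 3) in IP14D-101 and between 3.90 and 5.36 elsewhere. Gata6, a defining factor of the lineage, was 7.34 ± 0.07 in IP14D-101 and between 3.68 and 4.85 elsewhere. The mean log2 level of the list was 7.32 in IP14D-101, 5.64 in IP36D-3 and between 5.34 and 5.93 in the remaining lines. Against IP14D-101, Olig2 of IP36D-3 was 0.85 lower and Olig1 was equal within the spread. The part of primitive endoderm cells in the Olig1 and Olig2 levels of IP14D-101 was not tested.

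The neural lists were read in the same 4 comparisons, in the same order. Oligodendrocyte genes called higher were 1, 1, 2 and 1 of 27, with 0 lower and medians of 0.23, 0.07, 0.29 and 0.10. Pdgfra was called in all 4, at 5.46 ± 0.15 (SD, n = 3) in IP14D-101 and between 3.64 and 3.88 in these lines, and Myrf, a myelin gene regulator, was the other member called against IP20D-3 (1.35 ± 0.11, SE). In the Shh pathway, 3, 0, 2 and 2 of 18 genes were higher and 0, 0, 1 and 0 lower, with medians of 0.21, 0.19, 0.35 and 0.29. Smo was higher by 1.19 against ESC2, 2.06 against IP20D-3 and 1.13 against IP36D-3. Gli1 was higher by 1.16 against ESC2 and 1.62 against IP36D-3, though the first fell to 0.98 with equal array medians. Of 30 bHLH genes, 1, 0, 4 and 1 were higher and 3, 2, 1 and 2 lower, with medians of 0.15, 0.13, 0.21 and 0.12. Neurod1 was higher by 1.51 against IP20D-3, and Neurog3 by 1.32 against IP20D-3 and 1.18 against IP36D-3. Id3 fell by 1.55 against ESC2, 1.80 against IP14D-1 and 2.09 against IP36D-3. Of 21 ventral neural tube genes, 1, 0, 1 and 1 were higher and 1, 2, 0 and 2 lower, with medians of 0.20, 0.21, 0.21 and 0.25. Of 26 genes of early neuroectoderm, 2, 2, 5 and 2 were higher and 4, 2, 2 and 3 lower, with medians of 0.05, 0.03, 0.21 and -0.03. Of 8 astrocyte genes, 1, 1, 0 and 0 were higher and 1, 0, 0 and 0 lower. Of 16 neuron genes, 2, 1, 2 and 0 were higher and 2, 3, 4 and 4 lower, with medians of 0.32, 0.10, -0.16 and 0.11. Among these, Nefm fell against all 4 lines, by 2.76, 2.34, 3.05 and 2.16 (log2). Elavl3, a gene for a neuronal RNA-binding protein, was higher by 1.11 against IP14D-1 and 1.30 against IP20D-3, the first call being lost without IP14D-101 replicate 2 (0.97).

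The genes beside the pair on chromosome 16 were read to see how far the pattern reached. In the RefSeq gene order, Olig2 and Olig1 stood next to each other, with Eva1c, Cfap298, Synj1, Paxbp1 and 4932438H23Rik on the side of Olig2 and Ifnar2, Il10rb, A930006K02Rik, Ifnar1 and Ifngr2 on the side of Olig1. Of these 10 measured neighbours, Paxbp1 was called higher in ESC2 (1.38 ± 0.09, SE, adjusted p = 1.08e-09 in limma) and Synj1 in IP20D-3 (1.18 ± 0.08, adjusted p = 3.64e-10), and 0 were called in IP14D-1, IP36D-3 and IP14D-101. Paxbp1 was 8.38 ± 0.10 (SD, n = 3) in R1, 9.76 ± 0.08 in ESC2 and between 8.55 and 9.16 in the iPS lines. Synj1 was 7.29 ± 0.10 in R1 and between 7.44 and 8.46 elsewhere, so R1 was the lowest line for Paxbp1 and Synj1. Of the 3 other probe sets of Synj1, 0 to 2 shared that direction, depending on the line. Of the 2 others of Paxbp1, 1 or 2 did. Ifnar2 and Ifnar1, the chains of the type I interferon receptor, were between 6.45 and 7.06 and between 6.89 and 7.65, and in neither was R1 the lowest line. The nearest measured gene on the Olig2 side, 4932438H23Rik, was between 3.42 and 3.89 in all lines, under the array median.

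**Figure D4:**
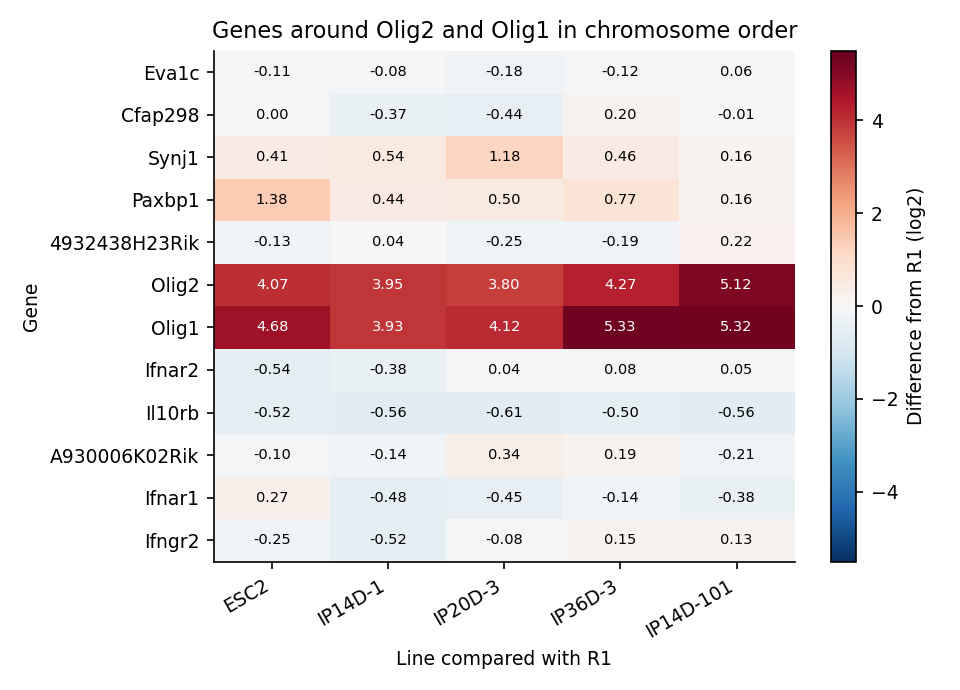
Log2 difference from R1 (colour and printed value) of Olig1, Olig2 and the 5 measured genes on each side in chromosome order (rows) in the other 5 lines (columns). Olig1 and Olig2 differ by 3.80 to 5.33 and the neighbours by -0.61 to 1.38.

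The genes whose line means were most like those of the pair were sought among genes with a range of line means of at least 1 and a highest mean of at least 6 in log2. There were 4072 such genes, and those with clone, Rik or predicted-gene symbols were then left out of the ranking. Likeness was Pearson's r over the 6 lines, a description in which the low value of R1 carries most of the relation. For Olig1 the 8 highest were Gramd1a (0.99), Olig2 (0.98), Nod1 (0.98), Kdm7a (0.96), Trub1 (0.95), Ppm1k (0.93), Rpgrip1 (0.92) and Ankrd35 (0.92). For Olig2 they were Olig1 (0.98), Kdm7a (0.96), Gramd1a (0.95), Nod1 (0.94), and Rpgrip1, Tet1, Cyct and Abcg1 at 0.93 each. Without R1, over 5 lines, the likeness to Olig1 was 0.92 for Gramd1a, 0.83 for Nod1, 0.77 for Olig2, 0.48 for Trub1, 0.31 for Kdm7a, 0.17 for Ppm1k, -0.32 for Ankrd35 and -0.54 for Rpgrip1. The likeness to Olig2 without R1 was 0.77 for Olig1, 0.73 for Abcg1, 0.53 for Gramd1a, 0.50 for Tet1, 0.44 for Cyct, 0.37 for Nod1, -0.06 for Kdm7a and -0.50 for Rpgrip1. These genes were picked on the same line means, so the values without R1 are no separate check.

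Nod1, an intracellular sensor of bacterial peptidoglycan, was 4.84 ± 0.20 (SD, n = 3) in R1 and between 6.78 in IP20D-3 and 7.76 in IP36D-3. Rpgrip1, a gene of the photoreceptor cilium, was 6.41 ± 0.11 in R1 and between 10.67 and 11.57 in the other lines. Its 3 other probe sets had means under 6 and 1 or 2 of them, depending on the line, shared that direction. Tet1, an enzyme that oxidises methylated cytosine, was 9.73 ± 0.23 in R1 and between 10.66 and 11.44 elsewhere, and its 3 other probe sets were lower in R1 in every comparison.

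**Figure D5:**
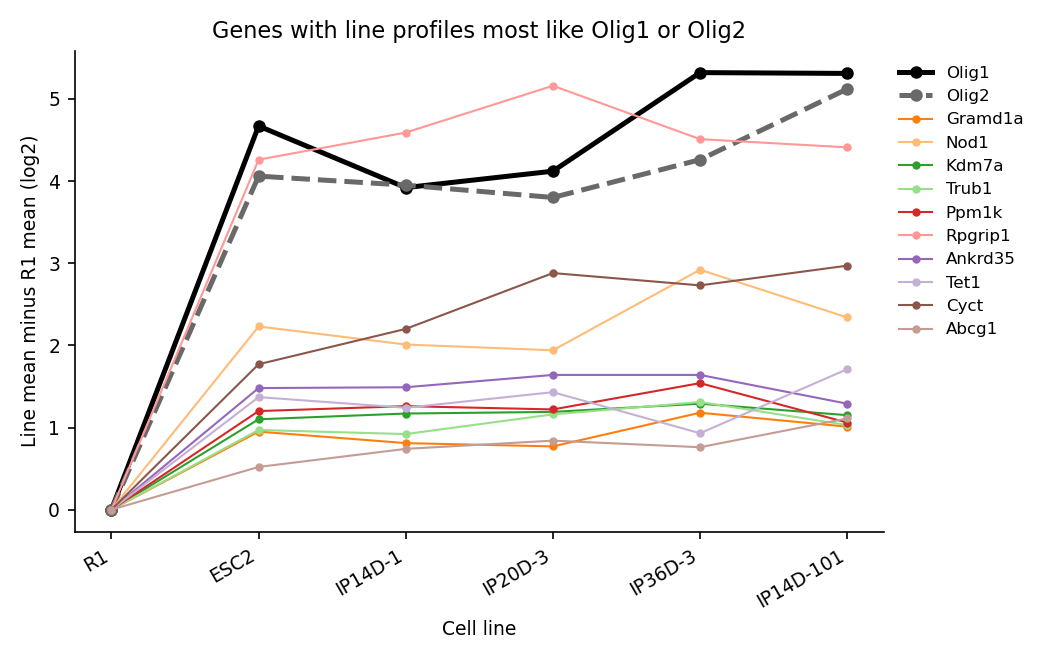
Line mean minus the R1 mean in log2 (vertical axis) in the 6 lines (horizontal axis) for Olig1, Olig2 (thick lines) and the genes of highest likeness (thin lines), with the lines drawn only to guide the eye. R1 is at 0 by construction and lowest in every gene shown, and the order of the other 5 cell lines differs between genes.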

How the data were processed

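Total RNA from 6 mouse lines was measured on 18 arrays, 3 per line. The deposited values are linear probe set intensities that the authors made with RMA (background correction, quantile normalisation and probe summary), per the design text of the series and the submitters' own processing notes, and were taken to log2. RMA tends to compress small signals. Array medians were 29.1 to 30.5. The number of arrays limits precision.

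Of 45101 probe sets, 64 controls were left out, 34945 had 1 symbol in the platform annotation, 932 several and 9160 none. By gene identifier, 34741 of the 34945 were found in a RefSeq table of GRCm38.p6, and 0 symbols changed. Each of 18193 genes was represented by its probe set of highest mean. Contrasts came from limma 3.58.1 (R 4.3.3), with 1 mean for each line fitted to all 18 arrays and Benjamini-Hochberg adjustment over the 18193 genes. The steps were tested on simulated data. Python 3.11.15, pandas 2.3.3, numpy 2.4.6 and matplotlib 3.10.9 made the tables and plots.

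The members, lists and comparisons were chosen with earlier results of these data known. Named were Olig1 and Olig2, up to 4 called members per list and comparison by size, genes whose role the text needs, 5 neighbours on each side, the 8 genes of highest likeness, and marker checks. Mbp and Mog were named after their values were seen, as were the early neuroectoderm genes with R1 as the lowest or highest line.

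Alternatives were other scalings, all probe sets, a filter on dim genes, other variance settings, leaving out each array, and the replicate number as a block.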

Additional observations from a re-analysis of the deposited data

How the results depend on the processing

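No alternative turned the sign of a difference of Olig1 or Olig2 from R1. Over median difference centring, equal array medians and repeated quantile normalisation, 9 differences of these genes between lines, counted once per setting, moved by more than the spread between arrays. With centring, Olig1 was 4.81 in ESC2 against R1 and 0.51 in IP14D-101 against ESC2. With equal medians, these were 4.87 and 0.46, Olig2 was 4.26 and 0.87, and Olig1 in IP20D-3 against R1 was 4.24. With repeated quantile normalisation, Olig1 was 4.09 in IP14D-1 and 5.44 in IP14D-101 against R1. Centring and equal medians shift whole arrays. Before them, the median difference of all genes was -0.15 in ESC2 against R1 and 0.15 in IP14D-101 against ESC2. The cause of the moves with repeated quantile normalisation was not tested. With all probe sets tested in place of 1 per gene, more features entered and more were called: 4056 in ESC2, 1931 in IP14D-1, 5271 in IP20D-3, 2735 in IP36D-3 and 839 in IP14D-101 against R1, and 4197, 1791, 4239 and 1862 in IP14D-101 against the others, beginning with ESC2 and ending with IP36D-3. The features tested were then the 45101 probe sets less 64 controls, against 18193 genes. The larger counts therefore do not mean that a larger share was called. Leaving out 1 array at a time kept every count of calls within 1.5 times, from 1423 to 1609 in ESC2 against R1. Of 108 counts of called list members, 10 moved by over 1.5 times with centring, 12 with equal medians, 6 with repeated quantile normalisation and 11 with dim genes filtered out, as did 32 of 1944 with 1 array left out. Olig2 minus R1 was lowest without R1 replicate 1 and highest without R1 replicate 3, at 3.89 to 4.24 in ESC2, 3.78 to 4.13 in IP14D-1, 3.63 to 3.98 in IP20D-3, 4.09 to 4.44 in IP36D-3 and 4.94 to 5.29 in IP14D-101. The replicate numbers were not taken as pairs. In their deviations from the line mean, same-numbered arrays of different lines correlated at -0.25 to 0.26, with a median of 0.04 and 13 of 45 pairs over 0.1. Arrays of different numbers correlated at -0.29 to 0.23, with a median of -0.03 and 10 of 90 pairs over 0.1. Whether same-numbered arrays shared a batch was not tested. With the replicate number as a block, 1479 genes were called in ESC2 and 700 in IP14D-1 against R1, as without it. Every line had the same replicate numbers, so this block leaves each log2 difference unchanged and can alter calls only through the spread. These counts therefore do not show whether a batch was shared. Signals near background, such as both genes in R1, limit what fold sizes can be read, and 3 arrays per line limit the precision.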
